A study of Homo sapiens with 9 samples.

Results

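Interleukin-1 (IL-1) family ligands, antagonists and receptors were followed as 10 genes, found by symbol among the 34643 genes of a table of FPKM values, fragments scaled to the length of the gene and to the fragment total of the library. The ligands were IL1A, IL1B, IL36G and IL18, the secreted antagonists were IL1RN and IL18BP, and the receptor genes were IL1R1, IL1RAP, IL18R1 and IL1R2. All 10 had a row. RNA was poly(A)-enriched and sequenced from THP-1, a human monocytic leukaemia line that was labelled wildtype. Every group, control included, first received the phorbol ester PMA at 500 nM for 4 h, which moves THP-1 towards a macrophage state, followed by 24 h of rest. The control group had no further treatment (replicates 1 to 3), the LPS group received lipopolysaccharide at 1 µg/mL (replicates 4 to 6), and the LPS+PD group received LPS at 1 µg/mL with PD at 10 µM (replicates 7 to 9). LPS is the bacterial cell wall component sensed by TLR4, and the series title gives PD as panaxadiol, a plant triterpenoid. PD alone was not tested, and neither the hours of LPS and PD exposure nor a vehicle could be read from the sources used here. Since the labels do not tell whether replicates were separate cultures, each p-value below is set against a spread between libraries that may be technical.

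IL-1 alpha and IL-1 beta bind the receptor IL1R1, which then recruits the shared co-receptor IL1RAP and signals through MYD88 and IRAK kinases to NF-kB. IL-18 uses a parallel pair of chains, IL18R1 and IL18RAP. IL-1 beta and IL-18 are made as precursors that caspase-1 cuts in the inflammasome, and monocytes and macrophages are their main sources. The system is braked outside the cell by the receptor antagonist IL1RN, by the decoy receptor IL1R2, which binds IL-1 without signalling, and by IL18BP, which captures IL-18.

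Libraries held 15641353 to 17875225 fragments, as recovered from the FPKM values, with group ranges that overlapped. Monocyte and macrophage markers were present: 9 of 10 reached a mean FPKM of 1 in some group, CD68 being the exception at group means of 0.128 to 0.237. CD14 reached it in the treated groups only, with a mean of 0.466 in control, 35.1 with LPS and 10.1 with LPS+PD. Their summed FPKM was 550 to 582 in control, 762 to 774 with LPS and 794 to 813 with LPS+PD. It therefore moved with treatment, and its part in the results below was not tested. None of 6 epithelial markers reached 1, with sums of 0.0454 to 1.16 across libraries. The lymphocyte marker CD3E was at 0 in 8 of 9 libraries. Of 6 fibroblast and endothelial markers 1 reached a mean of 1 (DCN, at 1.15 with LPS). In bulk RNA, fewer cells that express a gene and less RNA per cell cannot be told apart.

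The members lie mostly in a pair of gene clusters on chromosome 2 (GRCh38, coordinates of the table). IL1A, IL1B, IL36G and IL1RN lie within 360 kb, chr2:112773915-113134016, and IL1R2, IL1R1 and IL18R1 within 461 kb, chr2:101991844-102452565. IL18 and IL18BP are on chromosome 11 and IL1RAP is on chromosome 3. In the ligand cluster the rows between IL1B and IL1RN that belong to other family ligands (IL37, IL36A and IL36B) did not exceed 0.135 FPKM in any library.

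Promoter sequence is shown for the 4 members with the largest log2 fold changes between LPS and control, all on chromosome 2, so that the stretch ahead of their starts can be read beside the values. The RefSeq table (GRCh38.p14) held 20 windows for 9 members and none for IL18. Each sequence runs 5′ to 3′ on the gene's strand and is cut so that it holds no base of a GENCODE v29 exon of the same gene. That of IL1RN lies ahead of its most downstream RefSeq start and runs over another RefSeq start, at chr2:113127489. The stretches of IL1RN and IL18R1 lie inside the gene spans given below, which begin further upstream, at chr2:113107214 and chr2:102311529. Capitals mark matches on either strand to the motifs searched.
IL1A, minus strand, chr2:112784591-112784743: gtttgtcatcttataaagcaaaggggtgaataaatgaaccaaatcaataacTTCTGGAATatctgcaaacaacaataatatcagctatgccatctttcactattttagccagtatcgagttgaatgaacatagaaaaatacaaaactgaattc
IL1B, minus strand, chr2:112836904-112837029: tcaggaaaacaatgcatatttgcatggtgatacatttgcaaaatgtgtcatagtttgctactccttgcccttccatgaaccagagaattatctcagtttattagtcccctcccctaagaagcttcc
IL1RN, plus strand, chr2:113127348-113127560: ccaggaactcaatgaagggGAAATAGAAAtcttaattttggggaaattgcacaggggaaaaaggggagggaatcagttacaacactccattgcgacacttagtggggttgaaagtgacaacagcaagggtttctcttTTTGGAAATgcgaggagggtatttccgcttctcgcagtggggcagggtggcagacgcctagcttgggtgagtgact
IL18R1, plus strand, chr2:102355546-102355795: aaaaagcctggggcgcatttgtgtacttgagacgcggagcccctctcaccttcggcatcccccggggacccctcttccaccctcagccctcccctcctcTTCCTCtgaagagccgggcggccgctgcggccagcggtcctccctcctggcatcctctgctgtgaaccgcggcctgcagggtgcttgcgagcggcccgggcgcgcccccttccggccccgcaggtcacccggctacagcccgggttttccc
The capitals are a C/EBP match in IL1A, an interferon-stimulated response element (ISRE) match followed by a C/EBP match in IL1RN, and a PU.1 match in IL18R1. The C/EBP match of IL1RN spans the RefSeq start that its stretch runs over. IL1B has no match within the bases shown; its C/EBP match TTGTGAAAT lies 91 bases ahead of the RefSeq start, in a stretch left out here.

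The search covered the 250 bases ahead of each start, on both strands, with overlapping matches counted. C/EBP (TTNNGNAAT) was found in windows of 4 of the 9 members, against 9.85% of all 35116 windows of the same length. AP-1 (TGANTCA) was found in 2 members (6.57% of all windows), PU.1 (GAGGAA) in 5 (23.6%) and ISRE in 3 (3.02%). The NF-kB consensus was found in 0 of the 20 windows against 5.21% of all. The 10-letter patterns searched for ISRE and NF-kB are given by name alone. A match is a description of letters, and a lack of one says only that these letters are not in these windows. Members with several starts had several windows, so their counts are not on the same footing as the share of single windows.

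In control cells the family was led by IL18 and by the antagonists, and the IL-1 ligands were near 0. The order of FPKM was IL18, IL1RN, IL18BP and IL1RAP, at means of 7.34, 5.51, 2.94 and 1.82, each apart from its neighbours. The other 6 members had means of 0.235 or less, and IL1B and IL1R1, the next in order, overlapped. With LPS the order was IL1B, IL1RN, IL18R1, IL18 and IL1RAP, with no overlap between neighbours, followed by IL18BP and IL1A, which overlapped. With LPS+PD it was IL1B, IL1RN, IL18 and IL18BP, followed by IL18R1 and IL1RAP, which overlapped.

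**Figure D1:**
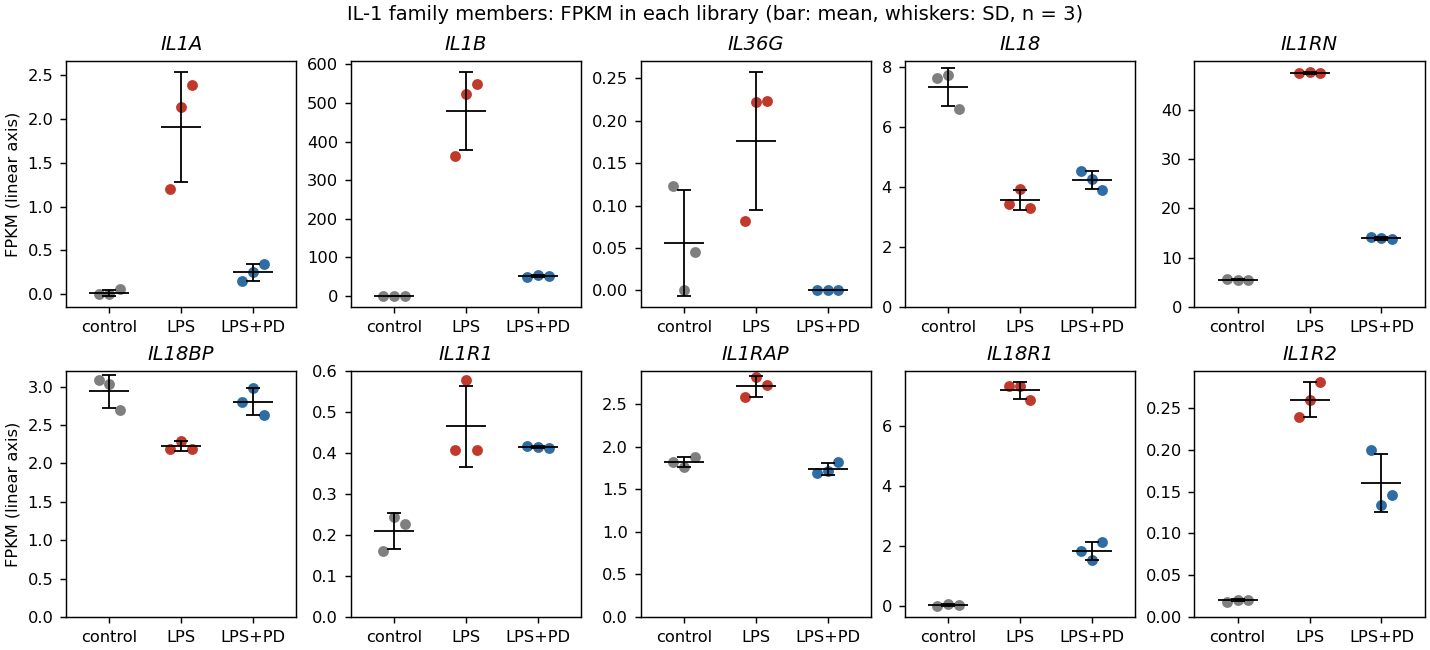
FPKM of each member in each of the 9 libraries, with the group mean (bar) and SD (whiskers, n = 3) on linear axes that differ between panels. IL1B, IL1RN, IL1A and IL18R1 are highest in the LPS libraries and intermediate with LPS+PD, while IL18 is highest in control.

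Differences between groups were tested with limma on log2(FPKM + 1) over the 13692 genes that reached 1 FPKM in 3 or more libraries. Genes with an adjusted p (Benjamini-Hochberg) below 0.05 are said to be called. Of the 10 members 7 passed this filter. IL36G, IL1R1 and IL1R2 did not, with no library above 0.580 FPKM. IL1B and IL18R1 had all control libraries below 1 and passed through the treated libraries, and IL1A passed through the LPS libraries alone, so counts over tested members say little about the family as a whole.

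Between LPS and control, IL1B, IL1RN, IL18R1, IL1A and IL1RAP rose, and IL18 and IL18BP fell. That is 7 of 7 tested members called, where 66.2% of all tested genes were called (26.4% higher and 39.7% lower). Between LPS+PD and LPS, IL1B, IL1RN, IL18R1, IL1A and IL1RAP fell, IL18BP rose and IL18 was not called, where 36.8% of all tested genes were called (23.8% higher and 13% lower). Between LPS+PD and control, IL1B, IL1RN and IL18R1 were higher, IL18 was lower, and IL1A, IL1RAP and IL18BP were not called, where 54.7% of all tested genes were called (26.0% higher and 28.7% lower). Groups whose libraries did not overlap were common: this held for 69.8% of all tested genes between LPS and control, 50.4% between LPS+PD and LPS and 61.6% between LPS+PD and control. The first pair of comparisons share the LPS libraries, so a high LPS value enters both with opposite signs.

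Fold changes on the log2(FPKM + 1) scale understate those of low genes. Over all tested genes the calls were 3621 higher and 5438 lower for LPS against control, and 3259 higher and 1778 lower for LPS+PD against LPS. With median-of-ratios scaling they were 4528 and 4418, and 2058 and 2508. The median log2 fold change of all genes moved by less than 0.1 between these scalings, from -0.08 and 0.07 to near 0, and each called member kept its direction under median-of-ratios and quantile scaling.

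**Figure D2:**
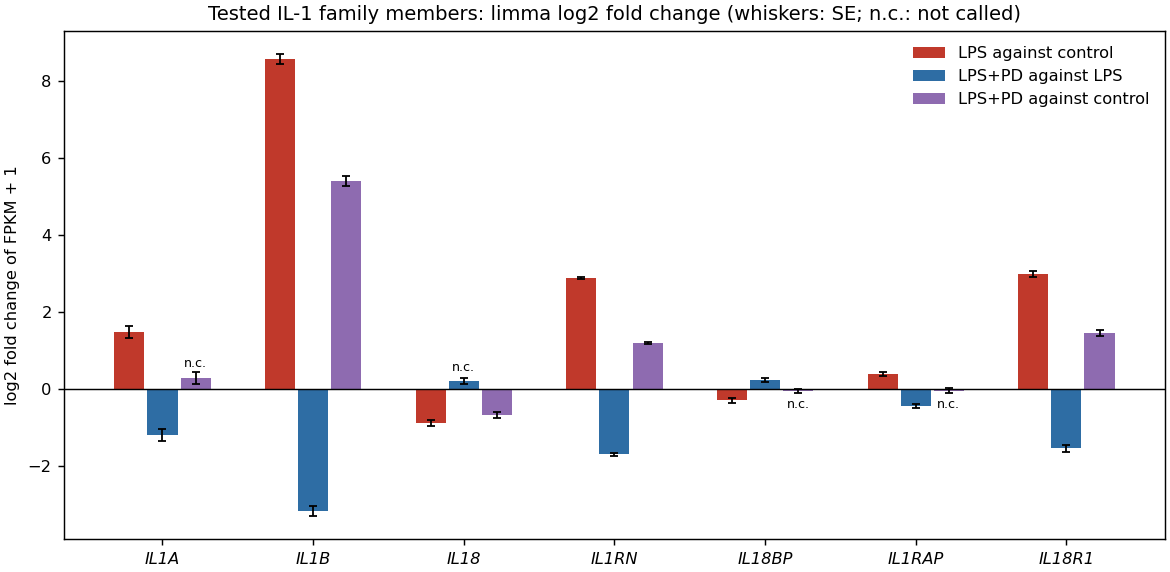
limma log2 fold changes of FPKM + 1 for the 7 tested members in the 3 comparisons (bars from 0, whiskers SE, n.c. for not called). IL1B has the longest bars, at 8.58, -3.17 and 5.41, and IL18 and IL18BP point the other way from the other members in the first comparison.

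IL1B, the inflammasome-processed ligand (ENSG00000125538, chr2:112829751-112836903, minus strand), went from near 0 to the highest level of the family. Control libraries held 0.238, 0.207 and 0.261 FPKM, LPS libraries 363, 524 and 548.5, and LPS+PD libraries 49.8, 53.2 and 51.7. The 3 groups did not overlap, and LPS replicate 4 was the lowest of its group. The mean was 0.235 ± 0.0275 (SD, n = 3) in control, 478 ± 101 with LPS and 51.6 ± 1.72 with LPS+PD. Its log2 fold change for LPS against control was 8.58 (SE 0.13, limma adjusted p = 3.31e-11), which ranked 1 among the 13692 genes. Against LPS, LPS+PD was lower by 9.28-fold in mean FPKM (log2 fold change -3.17, SE 0.13, adjusted p = 3.74e-07). IL1B with LPS+PD still stood 219-fold above control (log2 fold change 5.41, adjusted p = 1.32e-09). Of the LPS difference in mean FPKM, 10.7% was left with LPS+PD (10.4 to 11.1% by library).

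IL1A, whose precursor is already active and is released from damaged cells (ENSG00000115008, chr2:112773915-112784590, minus strand), showed the same order of groups at far lower levels. It had 0, 0 and 0.0586 FPKM in control, 1.20, 2.13 and 2.38 with LPS, and 0.158, 0.250 and 0.343 with LPS+PD. These values rest on 0, 0 and 2 fragments, on 45, 74 and 82, and on 6, 9 and 13. The groups did not overlap, and LPS replicate 4 was again lowest. The ratio of LPS to control mean FPKM was 97.6, and 65.0 without control replicate 1 or without control replicate 2, while without control replicate 3 control stood at 0. LPS exceeded control by a fragment rate ratio of 98.8 (exact 95% interval 27.0 to 821, counting error only), with a log2 fold change of 1.49 (SE 0.16, limma adjusted p = 2.83e-05). LPS+PD was below LPS (rate ratio 0.133, interval 0.0861 to 0.198; log2 fold change -1.19, SE 0.16, adjusted p = 0.000421). With a pseudocount of 0.01 the adjusted p of that difference was 0.0507. LPS+PD against control was not called (log2 fold change 0.29, adjusted p = 0.156), although it was called with a pseudocount of 0.1 (adjusted p = 0.0177) or 0.01 (0.0118) and with voom on the recovered fragments (0.00375).

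IL18, the ligand that monocytes hold ready before stimulation (ENSG00000150782, chr11:112143251-112164117, minus strand), was highest in control. Its FPKM was 7.65, 7.76 and 6.60 in control, 3.42, 3.94 and 3.31 with LPS, and 4.53, 4.28 and 3.91 with LPS+PD. Control stood apart from both treated groups, which overlapped each other. The control mean of 7.34 ± 0.638 was 2.06-fold that of LPS, 3.56 ± 0.337 (log2 fold change -0.87, SE 0.08, limma adjusted p = 6.38e-06). It was 1.73-fold that of LPS+PD, 4.24 ± 0.315 (log2 fold change -0.67, SE 0.08, adjusted p = 6.44e-05). LPS+PD and LPS differed by 0.20 on the log2 scale (SE 0.08, adjusted p = 0.0679), which was not called. That adjusted p was 0.0365 without LPS replicate 5 and 0.0492 without control replicate 3. It was 0.200 with median-of-ratios scaling and 0.163 with quantile normalization, and the difference stayed uncalled in 16 of 19 alternatives.

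IL36G, an epithelial ligand of the receptor IL1RL2 (ENSG00000136688, chr2:112973203-112985665, plus strand), was at the limit of detection. Libraries held 3, 0 and 1 fragments in control, 2, 5 and 5 with LPS, and 0 in each LPS+PD library. The highest FPKM was 0.223, and 0 fragments in an LPS+PD library allow up to 0.128 FPKM (3 fragments, counting error only). Control overlapped both other groups, LPS and LPS+PD did not overlap, and no fold is given. Without the filter, limma gave adjusted p-values of 0.0831 for LPS against control, 0.0344 for LPS+PD against LPS and 0.424 for LPS+PD against control.

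Both antagonists were present in control, and they moved in opposite directions with LPS. IL1RN, the receptor antagonist (ENSG00000136689, chr2:113107214-113134016, plus strand), had 5.60, 5.48 and 5.44 FPKM in control, 47.4, 47.7 and 47.4 with LPS, and 14.3, 13.9 and 13.7 with LPS+PD. The 3 groups lay apart, with SDs of 0.0800, 0.198 and 0.303 FPKM inside them. LPS was 8.62-fold above control (log2 fold change 2.90, SE 0.03, limma adjusted p = 2.90e-12). LPS+PD was 3.41-fold below LPS (log2 fold change -1.70, SE 0.03, adjusted p = 6.91e-09) and 2.53-fold above control (1.20, SE 0.03, adjusted p = 1.40e-09). Of the LPS difference 20.1% was left with LPS+PD.

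IL18BP, the soluble trap of IL-18 (ENSG00000137496, chr11:71998541-72005715, plus strand), had 3.09, 3.03 and 2.69 FPKM in control, 2.19, 2.30 and 2.18 with LPS, and 2.80, 2.98 and 2.64 with LPS+PD. LPS libraries lay below all others, while control and LPS+PD overlapped. The limma log2 fold change was -0.29 for LPS against control (SE 0.06, adjusted p = 0.00259), and LPS+PD was higher than LPS (0.24, SE 0.06, adjusted p = 0.0145). Without LPS+PD replicate 8 the latter adjusted p was 0.0558. IL18BP shares 675 exonic bases, 15.6% of its exon length, with NUMA1 on the opposite strand. NUMA1 had 11.2 to 12.03 FPKM in control, 7.94 to 8.57 with LPS and 9.07 to 9.78 with LPS+PD, so it moved the same way. No source used here tells whether fragments were counted by strand, so the IL18BP levels are uncertain.

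Among the 4 receptor genes, IL18R1 had the largest ratio of LPS to control mean FPKM, at 247 on few control fragments, beside 13.1 for IL1R2, 2.21 for IL1R1 and 1.49 for IL1RAP. IL18R1, the IL-18 binding chain (ENSG00000115604, chr2:102311529-102398775, plus strand), had 0, 0.0588 and 0.0286 FPKM in control, 7.35, 7.33 and 6.87 with LPS, and 1.82, 1.53 and 2.13 with LPS+PD. Control libraries held 0, 4 and 2 fragments, against 485 to 565 with LPS and 113 to 165 with LPS+PD, and no groups overlapped. In mean FPKM LPS was 247-fold above control, a ratio that was 165 without control replicate 1 and 503 without control replicate 2. The fragment rate ratio was 257 (exact 95% interval 118 to 702, counting error only), and the limma log2 fold change was 2.99 (SE 0.08, adjusted p = 1.76e-09). LPS+PD was 3.93-fold below LPS (-1.54, SE 0.08, adjusted p = 1.74e-06) and above control (1.45, SE 0.08, adjusted p = 5.51e-07). Its partner chain IL18RAP, not one of the 10, had 0 to 0.0431 FPKM in control, 4.75 to 5.09 with LPS and 0.849 to 1.19 with LPS+PD. IL18R1 shares 95 exonic bases (2.18%) with IL1RL1 on the same strand.

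IL1RAP, the co-receptor shared by IL-1, IL-33 and IL-36 (ENSG00000196083, chr3:190514051-190659750, plus strand), had 1.82, 1.76 and 1.87 FPKM in control, 2.58, 2.82 and 2.72 with LPS, and 1.69, 1.71 and 1.82 with LPS+PD. LPS libraries stood above the others, and control and LPS+PD overlapped. LPS was 1.49-fold above control, with a limma log2 fold change of 0.40 (SE 0.06, adjusted p = 0.000218). It was 1.56-fold above LPS+PD (log2 fold change of LPS+PD against LPS -0.44, SE 0.06, adjusted p = 0.000380). LPS+PD against control was not called (adjusted p = 0.594).

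IL1R1, the signalling receptor for IL-1 (ENSG00000115594, chr2:102064544-102179874, plus strand), stayed below 1 FPKM. It had 0.160, 0.244 and 0.228 FPKM in control, 0.408, 0.580 and 0.409 with LPS, and 0.419, 0.416 and 0.412 with LPS+PD. Control lay below both treated groups, which overlapped. The fragment rate ratio was 2.22 for LPS against control (exact 95% interval 1.68 to 2.97), 1.99 for LPS+PD against control (1.50 to 2.66) and 0.895 for LPS+PD against LPS (0.714 to 1.12), all for counting error only. Without the filter, limma gave adjusted p-values of 0.0138, 0.0424 and 0.753, where 31.8%, 23.8% and 13.5% of 32873 genes were called.

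IL1R2, the decoy (ENSG00000115590, chr2:101991844-102028544, plus strand), had 1 fragment in each control library, 13, 13 and 14 with LPS, and 11, 7 and 8 with LPS+PD. In FPKM these were 0.0185 to 0.0208, 0.239 to 0.281 and 0.134 to 0.200, with no overlap between groups. The rate ratio was 13.1 for LPS against control (exact 95% interval 4.17 to 66.2), 8.12 for LPS+PD against control (2.49 to 41.9) and 0.620 for LPS+PD against LPS (0.363 to 1.04). The limma adjusted p-values without the filter were 0.000192, 0.00483 and 0.0600.

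Ratios of members within a library do not depend on scaling between libraries. They were compared with two-sided exact permutation tests of the log2 ratio, in which 3 against 3 libraries cannot give a p below 0.1. The balance of IL1B to its antagonist IL1RN turned over. IL1RN stood 23.6 ± 2.84-fold (SD, n = 3) above IL1B in control, where libraries held 13, 10 and 13 IL1B fragments. IL1B stood 10.1 ± 2.12-fold above IL1RN with LPS and 3.70 ± 0.186-fold with LPS+PD. The log2 ratio differed by 7.86 between LPS and control, by -1.42 between LPS+PD and LPS and by 6.44 between LPS+PD and control, each with no overlap and an exact p of 0.1. Among the LPS libraries the ratio ran from 7.66 to 11.6.

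The IL18 to IL18BP ratio was 2.50 ± 0.0553 in control, 1.60 ± 0.104 with LPS and 1.51 ± 0.0973 with LPS+PD. It differed from control without overlap in both treated groups (log2 differences -0.64 and -0.72, exact p = 0.1 each), while LPS+PD and LPS overlapped (-0.08, exact p = 0.4). Since IL18BP may hold fragments of NUMA1, as given above, the level of this ratio and its differences are uncertain. The decoy to receptor ratio, IL1R2 to IL1R1, was 0.0964 ± 0.0164 in control, 0.574 ± 0.120 with LPS and 0.385 ± 0.0822 with LPS+PD. Treated libraries lay above control (log2 differences 2.56 and 1.99, exact p = 0.1 each) and overlapped each other (-0.57, exact p = 0.2). The control ratio rests on 1 IL1R2 fragment per library. With 0.1 FPKM added to both genes the differences from control were 0.72 (exact p = 0.1) and 0.37, the latter with overlap (exact p = 0.2). IL1B exceeded IL1A by 259 ± 37.9-fold with LPS and 226 ± 83.1-fold with LPS+PD, and these overlapped (log2 difference of IL1A to IL1B 0.25, exact p = 0.5). With 0.1 FPKM added to both genes they did not overlap (0.69, exact p = 0.1), nor did they without LPS+PD replicate 7 (0.52), while without LPS+PD replicate 9 the difference was -0.00866. These 10 ratio tests were not adjusted, since none can pass 0.05.

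**Figure D3:**
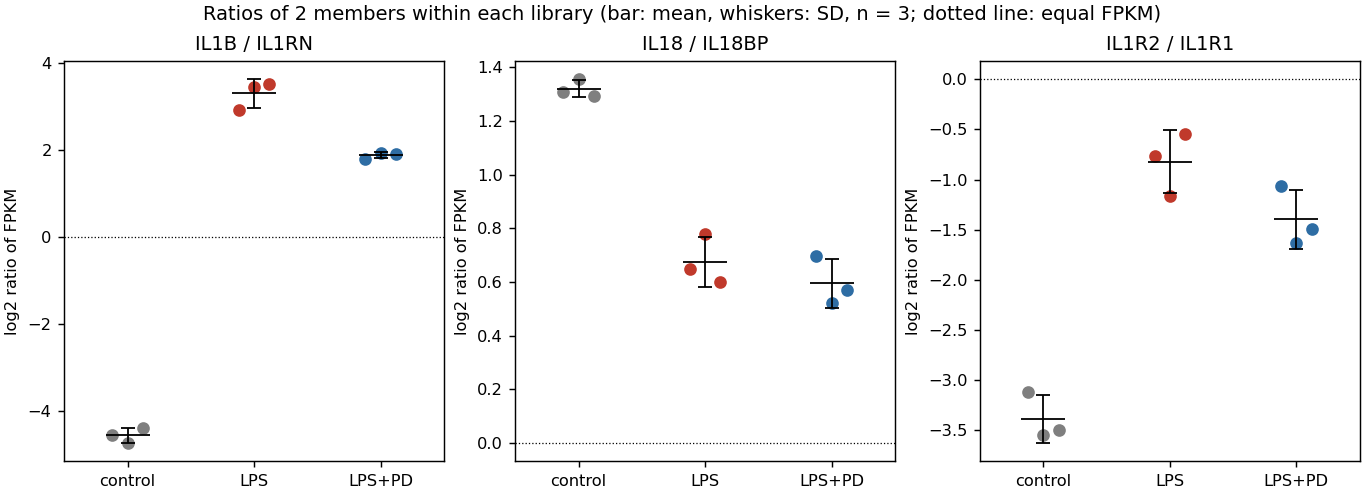
log2 ratio of FPKM of 2 members within each library (points), with group mean and SD (n = 3); the dotted line marks equal FPKM. IL1B to IL1RN lies below the line in control and above it in both treated groups, and IL18 to IL18BP is highest in control.

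Companion genes came from 4 lists. The responsive list held 27 genes that IL-1 is known to induce, many of which TLR4 also induces, and 16 were tested. All 16 rose with LPS (median log2 fold change 3.18, against -0.08 for all genes, of which 26.4% were called higher). They included the chemokine CCL2 (0.113 to 245 FPKM), the mitochondrial dismutase SOD2 (2.86 to 74.9), the adhesion molecule ICAM1 (0.478 to 85.9) and the NF-kB inhibitor TNFAIP3 (3.63 to 71.9). With LPS+PD against LPS 15 fell and VCAM1 was not called (median -1.36, against 0.07 for all genes, of which 13% were called lower). CCL2 was at 27.7, SOD2 at 26.4, the neutrophil chemokine CXCL8 at 30.0 against 167, and CXCL1 at 5.44 against 19.7 FPKM. Against control 13 were still higher and 3 were not called (median 2.23), where 26.0% of all tested genes were called higher. In 12 of the 16 every control library was below 1 FPKM, so these had passed the filter only through treated libraries, and had to differ. Of them CSF2, IL6, MMP1 and PTGS2 were also below 1 FPKM in every LPS+PD library and passed through LPS alone, so the counts and medians above partly follow from the filter.

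LPS replicate 4, lowest for IL1B and IL1A, was also the lowest LPS library for 12 of these 16 genes (75.0%), where it was lowest for 29.6% of all tested genes. IL1RN did not share this, at 47.4 FPKM in that library and 47.7 and 47.4 in the others. Counts for the other groups could not settle whether such a skew was particular to the LPS group. A tie went to the tied library with the lowest replicate number, and IL6 and CSF2 were at 0 FPKM in every control library. Counted so, control replicate 1 was the lowest control library for 13 of the 16 genes (81.25%, against 31.9% of all tested genes). LPS+PD replicate 7 was the lowest of its group for 8 (50%, against 36.7%).

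Of 31 genes of IL-1 receptor signalling 29 were tested. With LPS 14 rose, 7 fell and 8 were not called (median 0.16), beside 26.4% of all genes higher and 39.7% lower. With median-of-ratios scaling 16 rose and 4 fell. The rises with the smallest p were those of NFKBIA, the NF-kB inhibitor (16.2 to 218 FPKM), NFKB1 (8.80 to 41.6), the kinase IRAK2 (0.423 to 18.6) and the adaptor MYD88 (10.1 to 31.9). Every control library was below 1 FPKM for IRAK2, which passed the filter only through treated libraries. With LPS+PD against LPS 10 fell, 6 rose and 13 were not called (median -0.11), beside 13% of all genes lower and 23.8% higher. With median-of-ratios scaling 15 fell and 1 rose. IRAK2 was at 3.22 FPKM, NFKB1 at 30.0, MYD88 at 20.3 and the ubiquitin ligase PELI1 at 5.01 against 13.1. Against control 13 were higher, 4 lower and 12 not called (median 0.07), beside 26.0% of all genes higher and 28.7% lower. With median-of-ratios scaling 13 were higher and 2 lower.

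Of 23 genes of IL-1 processing and release 20 were tested. With LPS 9 rose, 8 fell and 3 were not called (median -0.04), beside 26.4% of all genes higher and 39.7% lower. With median-of-ratios scaling 9 rose and 5 fell. CASP1, the protease that cuts the IL-1 beta and IL-18 precursors, rose from 13.7 to 42.3 FPKM, and NINJ1, which ruptures the membrane of dying cells, from 8.34 to 36.1. The neutrophil-type proteases CTSG and PRTN3, which can also cut IL-1 family precursors, fell from 1360 to 143 and from 1281 to 268. With LPS+PD against LPS 9 fell, 5 rose and 6 were not called (median -0.15), beside 13% of all genes lower and 23.8% higher. With median-of-ratios scaling 11 fell and 5 rose. CASP1 was at 25.1 FPKM, CASP5 at 0.561 against 4.69 and NINJ1 at 22.1, and CTSG rose to 248. In 2 of the 20 genes, CASP5 among them, every control and every LPS+PD library was below 1 FPKM. They passed the filter through LPS alone, so their rise and fall partly follow from the filter. Against control 7 were higher, 8 lower and 5 not called (median -0.07), beside 26.0% of all genes higher and 28.7% lower. P2RX7, the ATP-gated channel upstream of the inflammasome, was at 11.95 against 1.87 FPKM.

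Of 12 further IL-1 family genes 2 were tested. IL18RAP had every control library below 1 FPKM and passed the filter only through treated libraries. It rose with LPS (log2 fold change 2.53, limma adjusted p = 5.14e-09) and was lower with LPS+PD than with LPS (-1.54, adjusted p = 1.71e-06). SIGIRR, an inhibitory receptor of the family, went the other way, at a mean of 9.45 FPKM in control, 2.66 with LPS and 4.64 with LPS+PD (log2 fold changes -1.52 and 0.62, adjusted p = 9.93e-08 and 0.000207). The other 6 in the table did not exceed 0.135 FPKM.

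**Figure D4:**
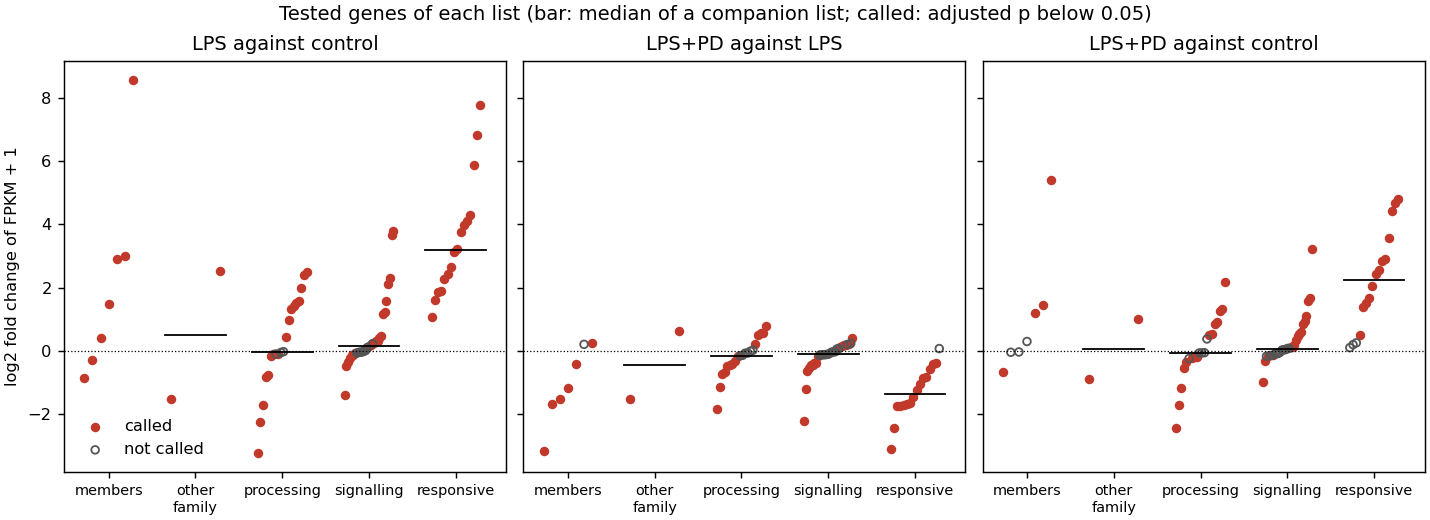
limma log2 fold changes of FPKM + 1 for each tested gene of the members and of the 4 companion lists in the 3 comparisons; filled points were called at an adjusted p below 0.05 and bars are medians of the companion lists. The responsive genes lie above 0 with LPS, with a median of 3.18, and 15 of the 16 lie below 0 with LPS+PD against LPS, with a median of -1.36.

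The genes whose pattern was most like that of a member were ranked by Pearson's r of log2(FPKM + 1) over the 9 libraries, among 7671 genes with a mean of at least 5 FPKM in a group. The 9 points share the 3 group differences, so r is a description. For IL1B they were LYN, CXCL13 and NRP1 (r = 0.9996, 0.9996 and 0.9995), and 290 genes exceeded 0.99. For IL1RN they were MILR1, ADGRE1 and APOL6 (0.9989, 0.9984 and 0.9983), and 95 genes exceeded 0.99. For IL1A they were ADPRH, MOB3C and SH3PXD2B (0.993, 0.988 and 0.986), and for IL18 they were BCL7C, MT-CO2 and RPS16 (0.992, 0.989 and 0.989), with 1 gene above 0.99 for each of these members.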

How the data were processed

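The authors deposited 1 table of FPKM values with a column for each of 9 THP-1 libraries. Tools named in the submitters' processing notes, without versions, are HISAT2, StringTie, bcl2fastq and FastQC, and the build is GRCh38. How strand and reads that match several genes were treated is not given in the sources used here. GENCODE v29 held 34579 of the gene IDs (99.8%), and 98.4% of these had the table's position. FPKM multiplied by the exon length in GENCODE v29 gave whole fragments for 97.8 to 98.0% of values per library (tolerance 0.05), which set the depth. Pairs within a group correlated at 0.9908 or more and differed by more than sampling noise (chi-square per degree of freedom 2.28 to 3.31), so all 9 count as separate libraries. Intervals and floors (3 fragments) cover counting error only, since fragments without molecular identifiers are not independent molecules.

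Groups came from the labels. limma 3.58.1 (R 4.3.3) was fitted to log2(FPKM + 1) with 3 group means in 1 model, eBayes with an intensity trend and Benjamini-Hochberg adjustment over 13692 genes. This test was run on simulated data whose spread was set in advance and not taken from these libraries, so its error rate here was not measured. Ratios, exact tests and motif searches used Python 3.11.15 with numpy 2.4.6 and scipy 1.17.1. Alternatives covered the pseudocount, the filter, the scaling, the groups in the fit, the trend, library weights, voom on recovered fragments and each library left out.

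All 10 members are named whatever their values. Up to 4 genes with the smallest p per list and comparison are named, with the 3 genes most like IL1A, IL1B, IL1RN and IL18, and VCAM1, CSF2, IL6, MMP1, PTGS2, IL37, IL36A, IL36B and NUMA1 were named after their values were seen. The members and lists were chosen with earlier results of these data known. The result of 1 marker list is not reported here in full.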

Additional observations from a re-analysis of the deposited data

How the results depend on the processing

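No paired analysis was possible because the replicate numbers run from 1 to 9 and none is shared between groups. For the values of single members, 380 recomputed values kept their direction and their side of the threshold, 6 became called, 2 lost the call and 2 changed sign. Both sign changes were differences of LPS+PD against control that were not called, under quantile normalization: 0.000176 for IL18BP and 0.0106 for IL1RAP on the log2 scale. The lost calls were those of IL1A at a pseudocount of 0.01 and of IL18BP without LPS+PD replicate 8, both for LPS+PD against LPS. The gains were 3 for IL18 in that comparison (filter at FPKM 5, without control replicate 3, without LPS replicate 5) and 3 for IL1A against control, as given above. With the filter at FPKM 5, 4 members were tested and 4 called for LPS against control (3 higher, 1 lower), and 1 other IL-1 family gene was tested and called in each comparison, because fewer genes were tested. The IL1A to IL1B ratio of LPS+PD against LPS, which was within the spread, was -0.00866 (log2 difference) without LPS+PD replicate 9, the lowest of -0.00866 to 0.52 with each library left out, and the cause was not tested. The remaining 350 recomputed values were counts of called genes within 1.5 times the reported one, in total over both directions, or ratios of the same sign. The split by direction and the size of a ratio could still move, as for the signalling list under median-of-ratios scaling and for IL1R2 to IL1R1 at a pseudocount of 0.1, as given above. Depth limits IL36G, IL1R2, IL1R1 and control values of IL1A, IL1B and IL18R1, which rest on few fragments.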
